A study of Mus musculus with 11 samples.

Results

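The genes described here are 9 chemokines measured in cardiac progenitor cells and in C2C12, a mouse myoblast line that fuses into muscle fibres in culture. They are the CC chemokines Ccl2, Ccl5 and Ccl7, the CXC chemokines Cxcl1, Cxcl5, Cxcl10, Cxcl12 and Cxcl16, and the CX3C chemokine Cx3cl1. Members were taken by gene name, synonym or accession among 27567 genes named on the array. All 9 were found, on 14 of 41121 probes. Expression was read on 11 1-colour arrays. Of these, 5 were of progenitors labelled as beta-sarcoglycan null (KO), 3 of progenitors labelled wild type (WT) and 3 of C2C12. The progenitors, called mesoangioblasts by the submitters, came from atrium, ventricle or aorta. Per the labels, the WT cells go on to form beating cardiomyocytes and the KO cells skeletal muscle fibres. The labels give no age, passage or growth state. Nor do they tie the samples to separate animals or cultures. A p-value for KO with WT here sets a difference against the spread between atrium, ventricle and aorta samples. Whether that spread also holds differences between animals, or technical ones, is not known.

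Chemokines are small secreted proteins that bind G protein-coupled receptors and draw receptor-bearing cells up their gradient. Ccl2 and Ccl7 attract monocytes through Ccr2, and Ccl7 also acts on Ccr1 and Ccr3. Ccl5 acts on Ccr1 and Ccr3, among others, and Cxcl10 draws activated T cells and natural killer cells through Cxcr3. Cxcl1 and Cxcl5 attract neutrophils through Cxcr2. Cxcl12 retains and guides progenitors through Cxcr4 and is scavenged by Ackr3. Cxcl16 and Cx3cl1 are made as membrane-anchored proteins that proteases can shed, and are read by Cxcr6 and Cx3cr1. In muscle, satellite cells and stromal cells are known sources of several of these ligands after injury.

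Values are log2 signal with the 75th percentile of each array set to 0. A value of one probe is set only against the same probe in other samples. On 3 occasions 2 arrays of the same group and, for the progenitors, the same region differed by less than the noise between repeated spots (0.590 to 0.706 of it, against 2.54 or more for other pairs). These arrays were averaged and counted as 1 sample. That left 3 KO-labelled, 3 WT-labelled and 2 C2C12 samples, with each heart region read in 1 sample of each label. An SD of the KO or WT samples is thus a spread between the 3 regions, and not between repeats of 1 region. The share of probes well above background was 49.0% to 62.0% per array. No slide held both genotypes, and C2C12 was on every slide. A slide-blocked difference is therefore also given, which sets each genotype against the C2C12 sample of its own slides and carries the difference between the 2 C2C12 samples. Sgcb, the gene named as deleted, had a mean of 2.66 in KO and 2.03 in WT samples, a difference of 0.63 (SE 0.21, limma adjusted p = 0.0710). Its signal was thus not lower under the KO label. The removed part of the gene is not given, and a probe outside it checks nothing, so the groups are called KO-labelled and WT-labelled.

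Markers fixed for other cell types also differed between the groups. Of all genes tested, limma put 16.1% lower and 13.7% higher in KO-labelled samples at an adjusted p under 0.05. Of 8 skeletal myoblast markers, 6 were tested and all 6 were higher in KO-labelled samples. The summed signal of all 8, in multiples of the 75th percentile, was 46.4 to 149 in KO-labelled, 0.12 to 0.17 in WT-labelled and 70.5 to 152 in C2C12 samples. Of 12 leukocyte and macrophage markers, 5 were above background on no array, Ptprc (CD45), Adgre1 and Itgam (CD11b) among them. Lyz2, a lysozyme of myeloid cells, was at least 44.9-fold higher in WT-labelled samples and was above background on all WT arrays and on no other. The summed signal of that list was 1.47 to 2.18 in KO-labelled, 1.75 to 3.72 in WT-labelled and 1.45 to 1.80 in C2C12 samples. Of 8 endothelial markers, Pecam1, Cdh5 and Kdr were above background on no array. The 2 tested were both lower in KO-labelled samples, the transcription factor Erg at least 3.36-fold and Egfl7 by a difference of -1.87. Erg was above background on WT arrays alone. The sums in the same order of groups were 0.49 to 0.72, 1.14 to 3.26 and 0.55 to 0.63. Fibroblast sums were 135 to 143, 87.0 to 169 and 145 to 160 in that order, and of 6 tested 3 were lower in KO-labelled samples (Thy1, at least 1294-fold, Dcn, -4.16, and Pdgfra, -4.11) and 2 higher (the collagens Col3a1, 2.02, and Col1a1, 0.77). Among pericyte and mesoangioblast markers, Alpl and Abcc9 were above background on no array, while Cspg4 (NG2) and Pdgfrb were above it on every array. Of 5 tested, 3 were higher in KO-labelled samples, Anpep by 6.69, Notch3 by 2.79 and Pdgfrb by 1.30. Cspg4 and Mcam did not pass the test. The sums of the whole list were 27.0 to 30.8 in KO-labelled, 9.66 to 14.4 in WT-labelled and 50.6 to 50.9 in C2C12 samples. Of 8 cardiomyocyte markers, 5 were tested and 3 were higher in KO-labelled samples, Nkx2-5 at least 15.3-fold, Tnnt2 by 3.07 and Gata4 by 0.79. Actc1 (2.19) and Myl7 (-1.13) did not pass the test, and Ryr2 and Tbx5 were above background on no array. The sums were 32.8 to 66.6 in KO-labelled, 7.51 to 13.9 in WT-labelled and 67.5 to 105 in C2C12 samples. Tnnt2 and Actc1 were the brightest of the list in each group. The part of any of these cells in the chemokine values was not tested. In bulk RNA, fewer cells making a chemokine and less RNA per cell cannot be told apart.

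KO-labelled progenitors had lower signal than WT-labelled progenitors for 6 chemokines, Ccl2, Ccl5, Cxcl1, Cxcl10, Cxcl12 and Cxcl16, and higher signal for 1, Cxcl5. Cx3cl1 and Ccl7 did not pass the test. Called means an adjusted p under 0.05 from limma over 15002 genes, with Benjamini-Hochberg adjustment. Over all genes tested 16.1% were called lower in KO-labelled samples and 13.7% higher. The larger side depended on the processing, with 2048 genes higher and 2413 lower here, 2225 and 1793 with scaling to the median, and 1541 and 1252 with normexp correction. The samples of the groups did not overlap for 8 of the 9 members, and for 49.2% of all genes. The median difference over the members was -2.69, or -1.72 with the 2 probes at background held at their bounds, and over all genes it was -0.06. With the slides blocked, 3 of the 9 members were called (Ccl5, Cxcl10 and Cxcl5), and 5.64% of all genes. The SE of a gene is much wider in the blocked fit.

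**Figure D1:**
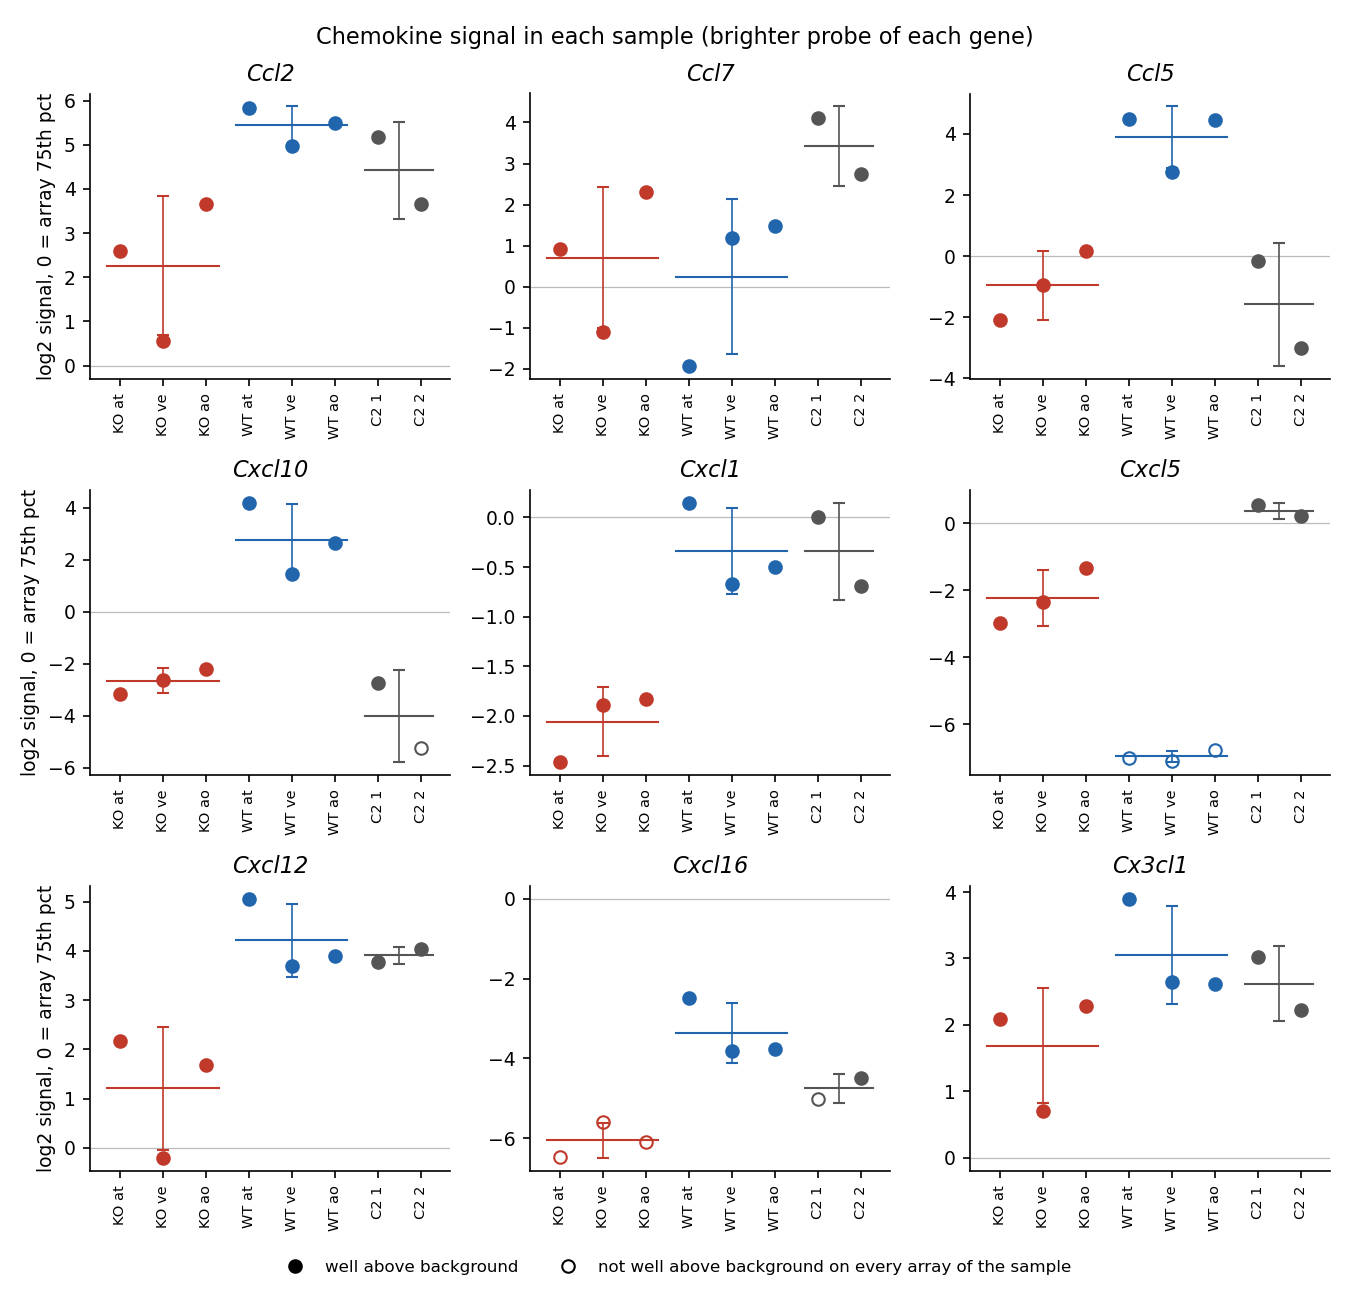
Signal of each chemokine in each of the 8 samples (vertical axis, log2 signal with 0 at the array's 75th percentile; at, ve and ao stand for atrium, ventricle and aorta, C2 for C2C12), with group means and SD; open points were not well above background on every array of the sample. KO points lie below WT points for 7 genes, above them for Cxcl5, and among them for Ccl7.

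**Figure D2:**
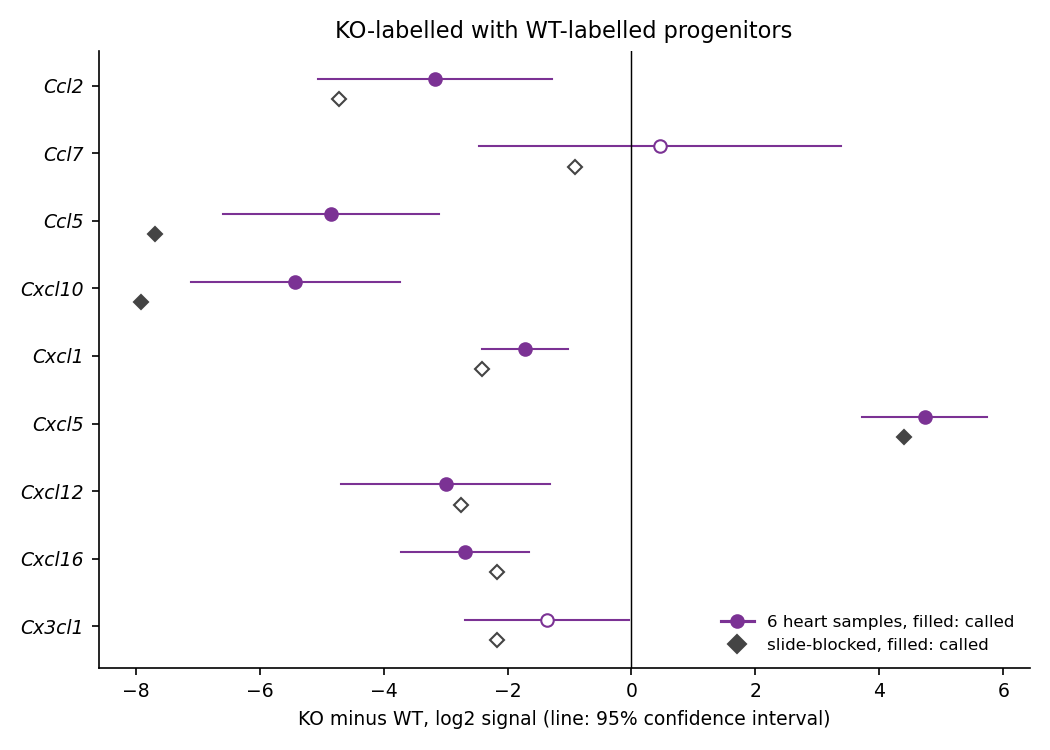
Difference KO minus WT for each chemokine on the log2 scale, with its 95% confidence interval from limma, and below it the slide-blocked difference; filled symbols were called. Cxcl5 lies at 4.73 and Cxcl10 at -5.42, and the interval of Ccl7 spans 0.

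Ccl2 and Ccl7 lie close together on chromosome 11 (probes at chr11:81853343-81853402 and chr11:81863349-81863408, mm8). Ccl2 read 2.59, 0.55 and 3.65 in KO atrium, ventricle and aorta, and 5.83, 4.98 and 5.50 in the WT counterparts. Every WT-labelled sample lay above every KO-labelled sample. The means were 2.26 ± 1.58 and 5.44 ± 0.43 (SD, n = 3 each), a difference of -3.18 (SE 0.77, 9.03-fold lower in KO-labelled, limma adjusted p = 0.0270). The Ccl2 call rested on few samples. The limma adjusted p was 0.0538 without WT atrium, 0.0616 without WT ventricle, 0.0850 without WT aorta and 0.0702 without KO atrium. The slide-blocked difference was -4.71 (limma adjusted p = 0.166).

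Ccl7 gave another pattern. It read 0.92, -1.10 and 2.31 in KO atrium, ventricle and aorta, and -1.92, 1.18 and 1.49 in WT, so the groups overlapped. The difference was 0.46 (SE 1.197, 95% interval -2.46 to 3.38, limma adjusted p = 0.805), wide enough to hold a large change either way. WT atrium, the highest sample for Ccl2, was the lowest for Ccl7. A neighbouring probe of Ccl7 (chr11:81863197-81863256) gave 0.33, -1.67 and 1.75 in KO and -2.41, 0.63 and 0.86 in WT, so the low value in WT atrium was read by both probes.

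Ccl5 and Cxcl10 showed the largest differences between the labels among the members lower in KO-labelled samples. Ccl5 (chr11:83341989-83342048, mm8) read -2.08, -0.95 and 0.17 in KO atrium, ventricle and aorta and 4.49, 2.74 and 4.46 in WT. No sample overlapped, and the lowest WT-labelled sample was the ventricle. The difference was -4.85 (SE 0.71, 28.9-fold, limma adjusted p = 0.00454), and the slide-blocked difference was -7.69 (limma adjusted p = 0.0368). The other Ccl5 probe (chr11:83342140-83342195) gave a difference of -5.10 (adjusted p = 0.00426 in the limma fit of every probe). Cxcl10 (chr5:93421955-93422014) read -3.16, -2.63 and -2.20 in KO and 4.19, 1.44 and 2.65 in WT. The means were -2.66 ± 0.48 and 2.76 ± 1.38 (SD, n = 3 each). The difference of -5.42 (SE 0.69, 42.9-fold) had a limma adjusted p of 0.00266, or 0.0298 for a slide-blocked difference of -7.91. The slide-blocked values of both genes were larger because C2C12 1, on the slides of the KO arrays, read higher than C2C12 2, with Ccl5 at -0.15 and -2.99 and Cxcl10 at -2.76 and -5.25. Ccl5 and Cxcl10 kept their call without any 1 sample, with differences of -5.43 to -4.29 and -6.08 to -4.71 and limma adjusted p up to 0.0242 and 0.0161.

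Promoters of 4 of the 9 members, Cxcl1, Cxcl10, Cxcl12 and Cx3cl1, are in the RefSeq promoter table of GRCm38.p6, which holds 32851 windows from 250 bases before to 50 after a start. Searched on both strands, the NF-kB motif, the binding sequence of a factor switched on by cytokine signalling, was in 8.46% of all windows. A pair of interferon-response half-sites, GAAANNGAAA, was in 3.44%, an AP-1 motif, TGANTCA, in 7.81% and a GC box, GGGCGG, in 35.7%. The Cxcl10 window held the first 3 of these motifs, and its bases 220 to 51 before the start (chr5:92348940-92349109, minus strand) are shown because this gene differed most. The capitals mark, in order, the interferon half-sites at 213 to 204, the NF-kB motif at 159 to 150 and, overlapping on both strands, at 104 to 94, and the AP-1 motif at 74 to 68. Bases 100 to 1 before the start of Cxcl1 (chr5:90891145-90891244, plus strand) have in capitals the overlapping NF-kB matches at 71 to 61. Bases 100 to 1 before the start of Cxcl12 (chr6:117168435-117168534, plus strand) have no match to those 3 motifs in their window and have GC boxes in capitals, most of them on the opposite strand. A match is a stretch of letters and not a measured site.
Cxcl10: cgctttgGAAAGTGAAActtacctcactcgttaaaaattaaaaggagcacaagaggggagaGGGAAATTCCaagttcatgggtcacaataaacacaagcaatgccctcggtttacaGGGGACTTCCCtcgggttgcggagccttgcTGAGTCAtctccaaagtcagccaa
Cxcl1: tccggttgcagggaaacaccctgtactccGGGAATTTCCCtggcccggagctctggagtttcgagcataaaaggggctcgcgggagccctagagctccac
Cxcl12: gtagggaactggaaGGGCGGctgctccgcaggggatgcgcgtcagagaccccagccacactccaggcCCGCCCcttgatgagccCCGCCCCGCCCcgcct

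The neutrophil-attracting pair differed in opposite directions. Cxcl1 (chr5:91968019-91968078, mm8) read -2.46, -1.89 and -1.83 in KO atrium, ventricle and aorta and 0.15, -0.67 and -0.50 in WT. The groups did not overlap, and the difference was -1.72 (SE 0.28, 3.30-fold lower in KO-labelled, limma adjusted p = 0.00700). The slide-blocked difference was -2.41 and was not called (limma adjusted p = 0.0745). Cxcl5 (chr5:91836379-91836438) read -2.98, -2.34 and -1.33 in KO-labelled samples and was above background on all 5 of their arrays. It was above background on no WT array, where it read -7.00, -7.08 and -6.77. Cxcl5 was therefore at least 6.46-fold higher in KO-labelled samples, a bound set against the dimmest signal called above background on the WT arrays. The measured difference was 4.73 (SE 0.41, limma adjusted p = 0.000636), and the slide-blocked one was 4.40 (limma adjusted p = 0.0385). With normexp correction the difference was 2.16 (limma adjusted p = 0.00594), smaller than the bound of 2.69 on the log2 scale. The bound is therefore tied to the processing used. C2C12 read higher still, at 0.55 and 0.22.

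Cxcl12 (chr6:117146828-117146887, mm8) read 2.16, -0.20 and 1.68 in KO atrium, ventricle and aorta and 5.06, 3.68 and 3.89 in WT. Every WT-labelled sample exceeded every KO-labelled one. The difference KO minus WT was -3.00 (SE 0.69, 7.98-fold, limma adjusted p = 0.0223). The call was lost without WT aorta (limma adjusted p = 0.0614) and with the slides blocked (-2.75, limma adjusted p = 0.359). The dimmer Cxcl12 probe (chr6:117140075-117140134), designed to another transcript record, gave a larger difference of -4.10 (adjusted p = 0.00542 in the limma fit of every probe). The brighter probe exceeded the dimmer by 2.70 to 2.93 in KO-labelled samples and by 1.06 to 2.49 in WT-labelled samples, so the probes did not move by the same amount.

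The receptors of Cxcl12 and Cxcl16 differed the other way. Cxcr4 read -2.11, -2.44 and -2.32 in KO atrium, ventricle and aorta, and was above background on no WT array, at -5.87, -6.52 and -6.65. It was at least 6.13-fold higher in KO-labelled samples (difference 4.06, SE 0.24, limma adjusted p = 0.000139), and the slide-blocked difference of 2.89 was also called (limma adjusted p = 0.0255). Ackr3, the scavenging receptor for Cxcl12, was above background on every array, and its difference of -0.56 (SE 0.34) was not called (limma adjusted p = 0.264). Cxcr6 read 0.21, -3.89 and 0.92 in KO-labelled samples, with the ventricle far below the others, and -6.97, -7.90 and -6.74 on WT arrays, none above background. On the group means Cxcr6 was at least 15.8-fold higher in KO-labelled samples (difference 6.28, SE 1.25, limma adjusted p = 0.0137). KO ventricle lay far below the KO mean of -0.92, so the bound does not hold for that sample alone. The slide-blocked difference of 6.67 was not called (limma adjusted p = 0.217). C2C12 had Cxcr4 at -0.74 and -1.91 and Cxcr6 at -0.70 and -0.31.

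Cxcl16 (chr11:70270473-70270532, mm8) was above background on no KO array, where it read -6.47, -5.59 and -6.09, and on all WT arrays, at -2.49, -3.81 and -3.77. It was at least 3.03-fold lower in KO-labelled samples (difference -2.69, SE 0.42, limma adjusted p = 0.00581). A probe drawn from 2 stretches of the gene (chr11:70272214-70274955) read -6.75, -6.78 and -7.22 in KO and -1.83, -3.81 and -2.89 in WT, at least 4.33-fold lower (adjusted p = 0.00206 in the limma fit of every probe). The probe kept for the gene, the one with the highest mean over the fitted samples, changed to this other probe without KO ventricle (difference -4.14) and without KO aorta (-3.92), so these values differ from -2.69 in probe as well as in samples. It changed in the same way with normexp background correction, where the gene was not called (-0.996, limma adjusted p = 0.180), and the part of the probe in that lost call was not tested. On the brighter probe the call was lost with the slides blocked (-2.17, limma adjusted p = 0.232). Without any 1 WT sample the gene could not be tested, since too few arrays were above background.

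**Figure D3:**
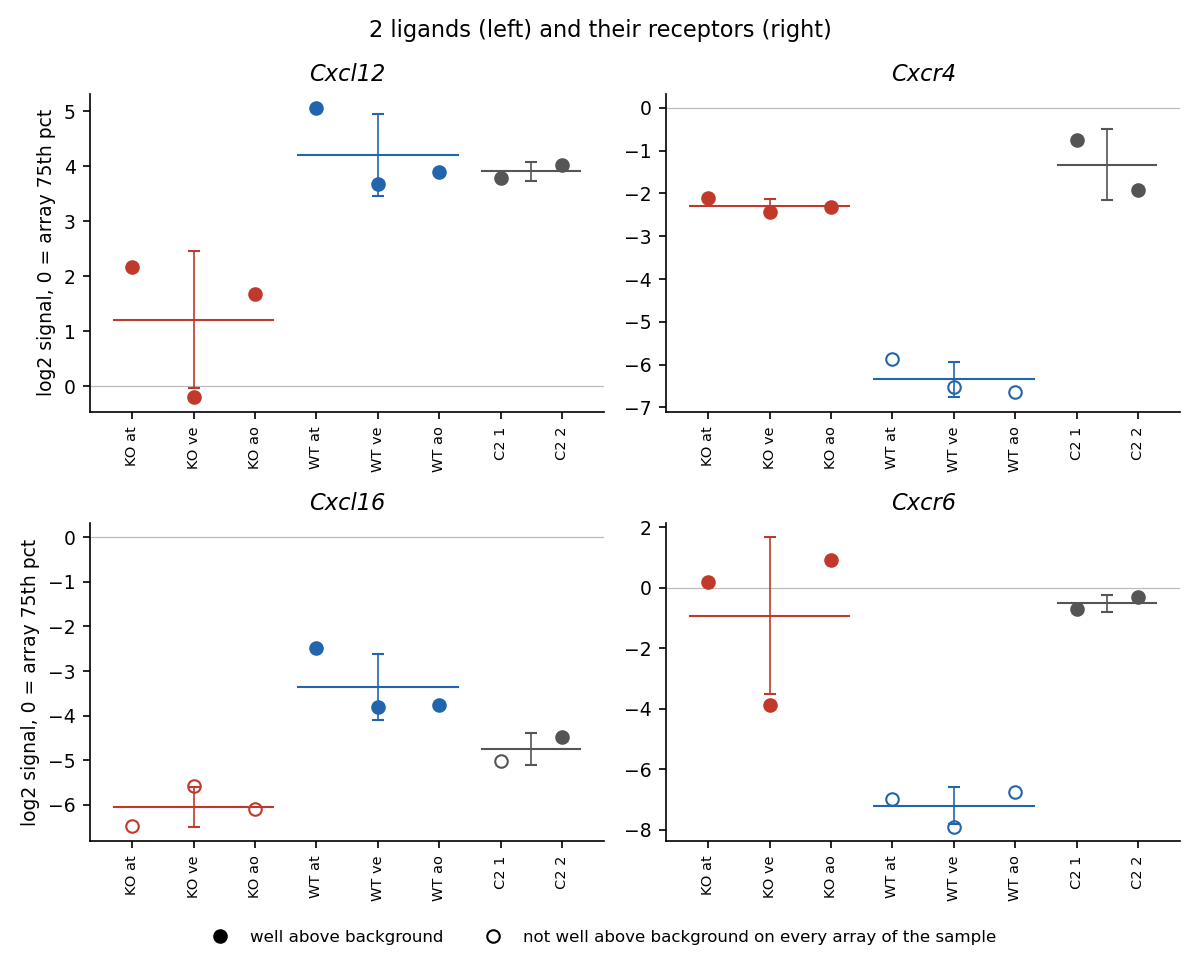
Signal of the ligands Cxcl12 and Cxcl16 and of their receptors Cxcr4 and Cxcr6 in each sample (log2 signal with 0 at the array's 75th percentile), with group means and SD. The ligands are lower and the receptors higher in KO than in WT samples, and open points were not well above background.

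Cx3cl1 (chr8:97671414-97671473, mm8) was bright in every sample. It read 2.08, 0.70 and 2.28 in KO atrium, ventricle and aorta and 3.90, 2.64 and 2.62 in WT. The groups did not overlap, but the gap between KO aorta and WT aorta was narrow, and the difference of -1.36 (SE 0.54, 95% interval -2.69 to -0.04) was not called (limma adjusted p = 0.111). Its other probe (chr8:97661971-97662030) was above background on no array and gives no information. Of 6 proteases that shed or trim chemokines, 4 were tested with KO and WT, Adam10, Adam17, Mmp2 and Mmp14, and none was called. Dpp4, above background on no array, was not tested. Nor was Mmp9, above background on 2 WT arrays and on no KO array. Against C2C12, Mmp9 was called higher in WT-labelled samples (3.18, limma adjusted p = 0.0290), though not with the slides blocked (limma adjusted p = 0.0998).

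Apart from Cxcr4, Cxcr6 and Ackr3, the receptors of the members were near background. Ccr1, Ccr2, Ccr3, Cxcr2 and Cx3cr1 were above it on no array. Cxcr3, Ackr1 and Ackr2 were above it on 1 or 2 arrays and were not tested. Of 11 other chemokine receptors, 6 were above background on no array, 2 were tested with KO and WT, and none was called. Of 16 other CC chemokines on the array, 7 were tested and 3 were lower in KO-labelled samples, as were 16.1% of all genes tested. These were Ccl27a, at least 13.7-fold lower, Ccl4, at least 1.73-fold lower, and Ccl9, with a difference of -2.60 (SE 0.57, limma adjusted p = 0.0196). Of these 3, Ccl27a alone was called with the slides blocked (-5.56, limma adjusted p = 0.00785). Of 11 other CXC and XC chemokines only Ppbp was tested and it was not called. Cxcl11, which shares Cxcr3 with Cxcl10 and was chosen for mention after its values were seen, was above background on 2 WT arrays alone, at -1.65 in atrium and -4.10 in aorta.

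Against C2C12, KO-labelled progenitors differed in 1 chemokine. Cxcl5 was lower in KO-labelled samples by a difference of -2.60 (SE 0.44, 6.06-fold, limma adjusted p = 0.0468 over 15805 genes). In this comparison 1.25% of all genes were called, and 0.588% lower in KO-labelled samples. The Cxcl5 call was lost in 6 of the 8 fits that left out a sample, with a limma adjusted p of 0.0785 without WT ventricle, 0.0878 without KO atrium, 0.0935 without WT aorta, 0.1004 without KO ventricle, 0.223 without C2C12 2 and 0.308 without C2C12 1. It was also lost with the slides blocked (0.210), with normexp correction (0.0873) and with no filter on dim probes (0.0781). Cxcl12 (-2.69, 95% interval -4.38 to -1.004), Ccl2 (-2.16, -4.24 to -0.07) and Ccl7 (-2.72, -5.74 to 0.31) were not called, with limma adjusted p of 0.176, 0.380 and 0.458. Cxcl1, at -1.72 (limma adjusted p = 0.0752), was called without WT atrium (0.0394). Ccl5, Cxcl10 and Cx3cl1 gave 0.62, 1.34 and -0.93 and were not called. Cxcl16, at background in KO-labelled samples, gave -1.30 on its brighter probe and was not called (limma adjusted p = 0.302). That probe was above background on 2 of the 3 C2C12 arrays, so no bound is given. The other Cxcl16 probe, above background in neither group, gave -0.25. The intervals are wide, and a missed threshold does not show that KO-labelled cells and C2C12 had like levels.

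WT-labelled progenitors differed from C2C12 in 3 of the 9 chemokines, with 2 higher and 1 lower. Cxcl10 was higher by 6.77 (SE 0.94, 109-fold, limma adjusted p = 0.00220) and Ccl5 by 5.47 (SE 1.01, 44.4-fold, limma adjusted p = 0.00744). These folds take in C2C12 2, where Cxcl10 was not well above background. Without C2C12 2 the differences were 5.52 and 4.05 (limma adjusted p = 0.0166 and 0.0481), and without C2C12 1 they were 8.01 and 6.89. Cxcl5 was at least 39.1-fold lower (difference -7.33, SE 0.44, limma adjusted p = 4.6e-05). Over the settings tried, its difference ran from -7.67 to -4.29, and the bound is -5.29 on the log2 scale. That bound too is tied to the processing used. Over all genes 13.8% were called higher in WT-labelled samples and 13.2% lower, and the member counts are not read as particular to the chemokines. Cxcl10, Ccl5 and Cxcl5 were also called with the slides blocked, at differences of 8.01, 6.89 and -7.16, where 14.5% of genes were. Cxcl10 was above background on 2 of the 3 C2C12 arrays, those of C2C12 1. Ccl2, Cxcl12, Cx3cl1 and Cxcl1 gave differences of 1.02, 0.30, 0.44 and 0.00, with none called. Cxcl16 gave 1.39 on its brighter probe (limma adjusted p = 0.0621), and on its other probe, which no C2C12 array read above background, at least 6.43-fold (adjusted p = 0.00194 in the limma fit of every probe). Ccl7 was lower in WT-labelled samples than in C2C12 by a difference of -3.18, which was not called (limma adjusted p = 0.113). The comparisons of KO and of WT with C2C12 share the C2C12 samples.

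**Figure D4:**
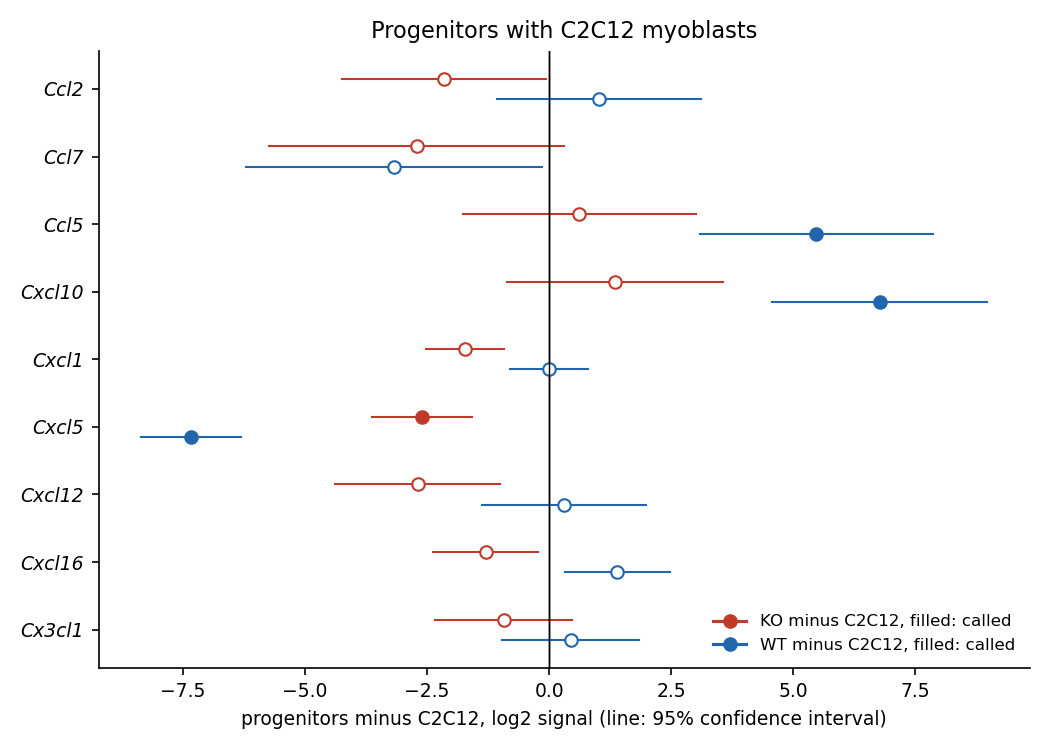
Differences of KO and of WT progenitors from C2C12 for each chemokine on the log2 scale, with 95% confidence intervals from limma; filled symbols were called. WT lies at 6.77 for Cxcl10 and -7.33 for Cxcl5, where KO lies at 1.34 and -2.60.

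The 2 C2C12 samples were themselves apart for some members. C2C12 1 and C2C12 2 read 5.19 and 3.65 for Ccl2, 4.11 and 2.74 for Ccl7 and 3.02 and 2.22 for Cx3cl1. Cxcl12 was close, at 3.78 and 4.03. Arrays averaged into 1 sample differed by at most 0.18 for any member probe above background on both.

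Heart regions were compared with genotype as a term, over 6 samples. By limma's F test 0% of genes were called for region. Before adjustment 720 of 15002 genes lay under 0.05. Cxcl12 was the only member among them (limma adjusted p = 0.807). The regional values below are therefore a description. For all genes, the share with each order of regions was not counted. Of the 8 members above background in KO-labelled samples, the aorta was highest for 7. The ventricle was lowest for 4 (Ccl2, Ccl7, Cxcl12 and Cx3cl1) and the atrium for the other 4. From KO ventricle to KO aorta Ccl7 spanned 10.6-fold and Ccl2 8.59-fold. The summed signal of the skeletal myoblast markers was 149 in KO ventricle, 94.8 in KO atrium and 46.4 in KO aorta, the reverse of the order of Ccl2, Ccl7 and Cx3cl1, and Myog, the factor that starts terminal muscle differentiation, read 4.61, 1.37 and -0.43. Their part in the regional values was not tested.

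Of the 8 members above background in WT-labelled samples, the atrium was highest for 7 and the ventricle lowest for 6, on the brighter probe of each gene. Some ranks were near ties, with Ccl5 at 4.49 and 4.46 in atrium and aorta and Cxcl16 at -3.81 and -3.77 in ventricle and aorta. Over 8376 bright probes WT atrium stood apart, with an SD of the log2 difference of 0.602 from ventricle and 0.578 from aorta. Between WT ventricle and aorta it was 0.216. The part of this in the member ranks was not tested. The other Cxcl12 probe gave another order, with 2.57, 2.62 and 2.33 in WT atrium, ventricle and aorta. Cxcl10 spanned 2.75 from WT ventricle to WT atrium and Ccl5 1.75. Ccl7 ran the other way, 3.40 lower in WT atrium than in WT aorta. The summed signal of leukocyte markers was 1.75 in WT atrium against 3.72 in ventricle and 3.25 in aorta, and that of fibroblast markers was 87.0 against 169 and 118. The part of these cells in the regional values was not tested. The difference KO minus WT kept its sign in all 3 regions for 8 members. For Cxcl10 it was -7.35 for atrium, -4.07 for ventricle and -4.85 for aorta, and for Ccl2 it was -3.24, -4.43 and -1.85. For Ccl7 it was 2.84, -2.28 and 0.82. With 1 sample for each region and label, whether KO minus WT differed between regions could not be tested, and region went with array position on every slide.

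**Figure D5:**
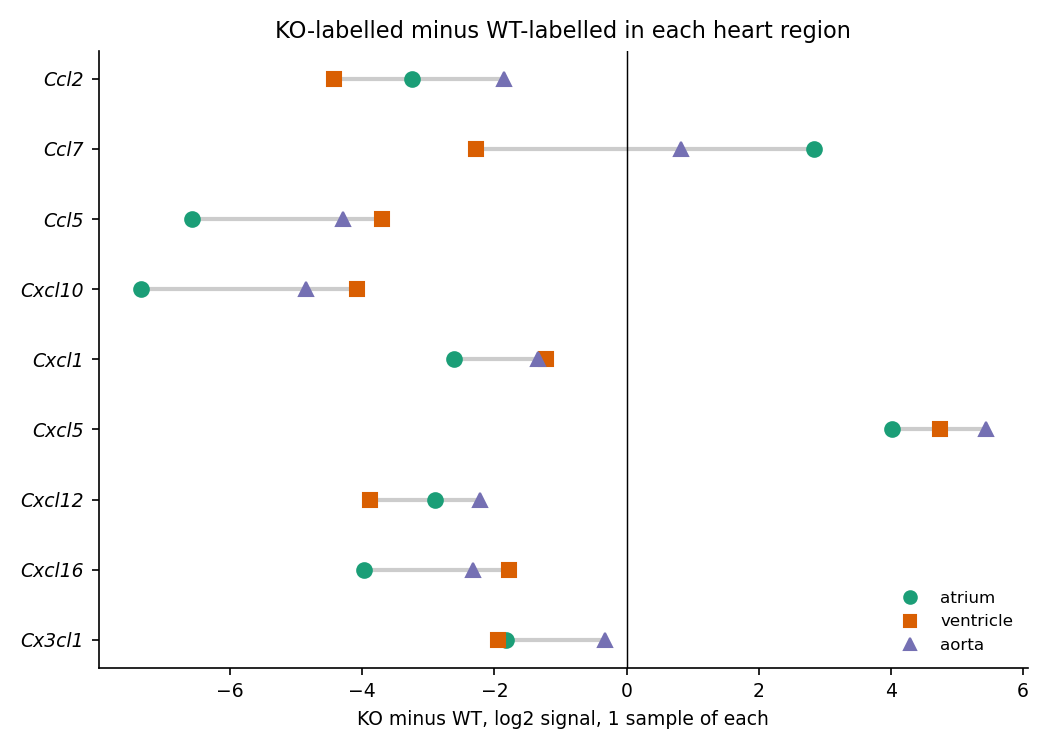
Difference KO minus WT within each heart region for each chemokine, on the log2 scale, from 1 sample of each label. The regions share a sign for 8 genes, and Ccl7 runs from -2.28 in ventricle to 2.84 in atrium.

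For each member the genes with the most similar profile over the 8 samples were sought among 13474 tested genes, by the root-mean-square difference of mean-centred log2 values. For Cxcl10 the closest was Ccl5 (0.72, where the SD of Cxcl10 itself was 3.08), then Nrn1. Ccl5 was closest to U90926 (0.54) and Ifit3 (0.69), an interferon-induced gene. Cx3cl1 was closest to Socs1 (0.32) and Csf1 (0.35), a feedback inhibitor of cytokine signalling and the macrophage growth factor. Cxcl16 was closest to Nod1 (0.31) and Aldh1a1 (0.34), and Cxcl1 to Cd74 (0.31) and Dnajc5 (0.33). Ccl2 was closest to Cobll1 (0.66) and Slpi (0.69), Cxcl12 to Krt80 (0.56) and Skap1 (0.60), and Cxcl5 to Slc16a3 (0.71) and Dact2 (0.73). Ccl7 had the loosest matches, Col6a2 (0.86) and Hspa1a (0.89). With 8 samples in 3 groups such closeness is shared by any genes with the same group means.

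Genes of the pathways that switch chemokines on were read from lists. Of 19 NF-kB pathway genes tested, 7 were lower and 2 higher in KO-labelled samples, with a median difference of -0.31. Tlr3, which senses double-stranded RNA, was at least 1.95-fold lower, and Nfkbie, an NF-kB inhibitor that is also a target, differed by -1.85 (SE 0.27, limma adjusted p = 0.00416). Tlr2 and Il1r1, receptors upstream of NF-kB, were higher by 1.40 and 1.35. Of 15 interferon response regulators tested, 7 were lower and 1 higher, with a median of -0.71. Over all genes tested, 16.1% were called lower in KO-labelled samples and 13.7% higher. The part of either list in the chemokine values was not tested. Irf7 differed by -3.30 (SE 0.63, limma adjusted p = 0.0118), Irf9 by -2.79 and Stat2 by -1.92. Irf7 and Irf9 are transcription factors of the type I interferon response, and Stat2 binds Irf9. Irf9 was also called with the slides blocked (-3.06, limma adjusted p = 0.0302), and the other 6 called genes named here were not. The receptors Ifnar1, Ifnar2, Ifngr1 and Ifngr2 were not called.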

How the data were processed

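Signal was measured on 11 Agilent 1-colour mouse arrays. The deposited scanner files hold spot intensity. The submitters' processing notes name Agilent Feature Extraction 9.5.3.1 as its source. The signal was background-subtracted and not scaled between arrays, per the file headers. The authors' series-wide table holds log2 values of the same signals and was used as an alternative. Control and outlier spots were left out, repeated spots averaged, log2 taken and the array's 75th percentile (961 to 1145) subtracted. Near-identical arrays were averaged, which left 8 samples. A probe was tested if well above background on at least 3 fitted arrays, with the brightest probe kept for each gene. Positions of probes are on mm8, as in the file headers. Names were updated through a RefSeq table of GRCm38.p6, which also gave the promoters, and 8061 probes kept the file's name.

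Groups were compared by lmFit and eBayes of limma 3.58.1 (R 4.3.3), with Benjamini-Hochberg adjustment over all genes tested. The fit of KO with WT held the 6 heart samples, and all 8 entered those with C2C12. Region was tested by an F test with genotype as a term. Where a probe was above background on no array of a group, the fold is a bound. It holds for the processing described above and was not recomputed under the alternatives below. The bound sets the brighter group's mean against the dim group's, after each dim value was raised, where it lay lower, to the dimmest signal above background on its array. The code was tested on simulated data. Normexp correction, median and quantile scaling, other filters, every probe, unjoined arrays, slide or region blocks, all samples in 1 fit, and leaving out each sample were tried. For region, leaving out samples was added after seeing the data. The members and lists were chosen with earlier results of these data known. Named genes are all members and their receptors, up to 4 called genes of each other list with the largest KO with WT difference, and the 2 closest genes of each member. Some genes this rule names are not reported here. Other genes named, markers at background among them, were chosen after their values were seen. The number of arrays limits the precision. Tables and plots were made with Python 3.11.15, numpy 2.4.6, pandas 2.3.3 and matplotlib 3.10.9.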

Additional observations from a re-analysis of the deposited data

Results flagged for a closer look

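Ccl7 was the only member whose KO minus WT difference changed sign between heart regions. It was 2.84 in atrium, -2.28 in ventricle and 0.82 in aorta, on the log2 scale. Each value rests on 1 sample of each label, and the difference between regions was not tested. Ccl2, whose probe lies close to that of Ccl7, gave -3.24, -4.43 and -1.85.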

How the results depend on the processing

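For KO with WT, 4461 genes were called, 2793 with normexp correction, 891 with the slides blocked and 2643 to 5873 without 1 sample. For KO with C2C12, 198 genes were called, 45 with normexp, 99 with no filter, 1629 with each array as a sample, 27 with the slides blocked and 13 to 464 without 1 sample. For WT with C2C12, 4265 genes were called, 2508 with normexp, 6661 with each array as a sample, 2286 with the slides blocked and 2273 to 5624 without 1 sample. For region, 0 genes were called, 122 with each array as a sample and 0 without any 1 sample. Values not called that changed sign were Ccl7 for KO with WT, from 0.46 to -0.90 with the slides blocked and between -0.62 and 1.36 without 1 sample, Ccl5 for KO with C2C12, from 0.62 to -0.80 with the slides blocked and between -0.80 and 2.04 without 1 sample, and Cxcl16 for KO with C2C12, from -1.30 to 0.20 with normexp, which also changed the probe kept for that gene. Cxcl1 for WT with C2C12 went from 0.00 to -0.052 with median scaling, -0.0038 with quantile normalization and -0.11 with each array as a sample, and lay between -0.34 and 0.35 without 1 sample. Cxcl12 for WT with C2C12 lay between -0.12 and 0.57 without 1 sample. Called members lost in KO with WT with the slides blocked were Ccl2, Cxcl1, Cxcl12 and Cxcl16. The cause of these changes was not tested. Cxcl12 and Cxcl1 for KO with C2C12 and Ccl7 and the brighter Cxcl16 probe for WT with C2C12 were called with each array as a sample, and Cxcl1 also without WT atrium. Signal over background limits Cxcl16 and Cxcl5, which were at background in 1 group each.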
